A study of Mus musculus with 6 samples.

Results

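The genes described here are those of mitochondrial protein import and of mitochondrial protein quality control. They were chosen by name in the deposited count table, as every locus with a gene name of the Timm or Tomm families followed by a digit, pseudogenes left out, together with 22 further listed names. This gave 47 of the 51499 loci in the table, where 23825 loci had at least 1 count. The cells were WT MEFs, immortalized fibroblasts grown from mouse embryos, and none carried an engineered deletion of *Yme1l*. One group of 3 independent cultures received a scrambled control siRNA (Scr siRNA), and the other group of 3 received Yme1l siRNA. All 6 cultures were collected 72 h after transfection, and poly(A) RNA was sequenced. The methods state that the WT line was a clone expanded from cells of *Yme1l* loxP/loxP animals and immortalized with SV40 large T antigen. The labels, in contrast, name 3T3 immortalization. Whether the Yme1l siRNA was 1 sequence or a pool was not analysed here, and the strain, sex and age of the embryos are not given in the sources used here.

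Nearly all mitochondrial proteins are made in the cytosol and enter the organelle through the TOM complex of the outer membrane. From there, precursors with a cleavable presequence pass the TIM23 complex and its ATP-driven motor into the matrix, carrier proteins are placed in the inner membrane by the TIM22 complex, beta-barrel proteins are inserted into the outer membrane by the SAM complex, and small proteins rich in cysteine are trapped in the intermembrane space by CHCHD4. Matrix chaperones fold the imported chains, and matrix and intermembrane space proteases remove those that fail. YME1L, the i-AAA protease of the inner membrane, faces the intermembrane space, and TIMM17A, a subunit of TIM23, is one of its known substrates.

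Levels of a gene are in CPM, its count as a share of the library total after TMM scaling in edgeR, and always stand in the order of cultures 1, 2 and 3. The libraries held between 37260605 and 45205207 counts. A gene was called changed where the quasi-likelihood test of edgeR gave it an adjusted p under 0.05 over all 14499 loci tested. These p-values weigh the difference between the groups against the spread between the cultures of a group. *Yme1l1*, the targeted gene, was at 170.5, 171 and 171 CPM in the Scr siRNA cultures and at 31.6, 23.4 and 45.04 CPM in the Yme1l siRNA cultures. It fell by 2.36 on the log2 scale (SE 0.20, adjusted p = 3.9e-05 in edgeR). Fibroblast transcripts were abundant. The 7 markers of that list summed to between 32950 and 40020 CPM with Scr siRNA and to between 17640 and 22050 CPM with Yme1l siRNA. *Col1a1*, *Col1a2*, *Col3a1*, *Fn1* and *Pdgfrb* were lower in every Yme1l siRNA culture than in any Scr siRNA culture. *Vim* overlapped between the groups, at 3631, 3817 and 3189 CPM and at 3103, 2905 and 3298 CPM. *Thy1* was at 3 counts or fewer in every library. Of 6 macrophage markers, *Ptprc*, *Adgre1* and *Itgam* were at 3 counts or fewer in every library. The sum of the list was 162.7 to 179.6 CPM with Scr siRNA and 242 to 255 CPM with Yme1l siRNA, a rise that lay in *Csf1r*. *Csf1r* was at 133.7, 126.3 and 108.9 CPM with Scr siRNA and at 209.8, 182.5 and 222.3 CPM with Yme1l siRNA. *Cd68*, at 44.6, 42.6 and 53.0 CPM and at 44.5, 58.2 and 25.7 CPM, overlapped between the groups, and *Lyz2* was at most 1.94 CPM. The 5 epithelial markers summed to at most 0.194 CPM with Scr siRNA and at most 1.33 CPM with Yme1l siRNA, and the 4 endothelial markers to at most 4.08 and 7.81 CPM. The part of these shifts in the results below was not tested, and in bulk RNA fewer cells of a type and less RNA per cell cannot be told apart.

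After Yme1l siRNA, transcripts of the import and quality control genes were more often higher than lower. The highest rises were those of the intermembrane space chaperone genes *Timm8a1*, *Timm9* and *Timm10*, the matrix chaperone gene *Hspa9* and the TIM23 genes *Timm50*, *Timm23* and *Timm17a*. The genes called lower were *Tomm22*, *Tomm34*, *Tomm20* and *Tomm7* and the small TIM genes *Timm10b* and *Timm8b*. Another 4 Tomm genes were called higher, the receptor gene *Tomm70a* among them. For *Tomm20* the authors' group levels lay the other way. Of the 47 genes, 45 were tested, and 21 were higher, 6 were lower and 18 were not called. The higher share was 46.7% against 28.4% of all loci tested, the lower share was 13.3% against 29.6%, and the share called in either direction was 60% against 58%. Thus these genes were called about as often as other loci, and the calls leaned to the higher side. The log2 fold changes ran from −0.951 to 1.143 with a median of 0.178 (0.112 without Yme1l siRNA culture 3), and the median of all loci tested was 0.009. Most changes were small. Only 6 of the 45 genes were higher and 2 were lower by at least 1.5-fold, against 15.7% and 16.1% of all loci tested. The groups did not overlap in 24 genes that were higher and 7 that were lower, against 31.9% and 33.6% of all loci tested. The median gene lay at −0.033, 0.058 and −0.011 on the log2 scale relative to the Scr siRNA mean in the Scr siRNA cultures, and at 0.146, 0.145 and 0.266 in the Yme1l siRNA cultures, so the Yme1l siRNA cultures lay above the Scr siRNA cultures. *Tomm20l* had 0 counts in all 6 libraries, which allows at most 3 counts per library, and *Timm8a2* had 1 count in each of Yme1l siRNA cultures 1 and 3 and 0 counts elsewhere. Neither could be tested.

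**Figure D1:**
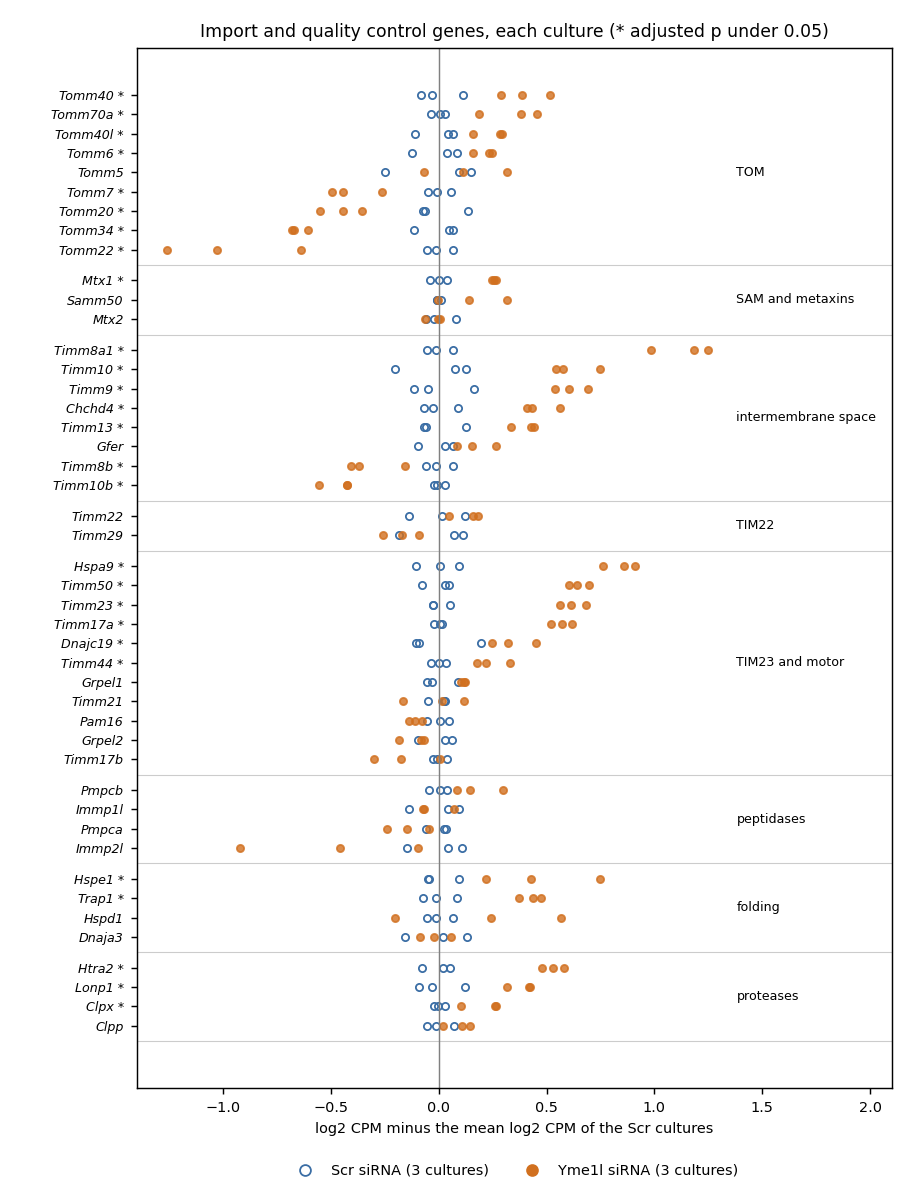
Each row is 1 of the 45 tested genes, grouped by role, and each point is 1 culture, plotted as its log2 CPM minus the mean log2 CPM of the 3 Scr siRNA cultures (open blue, Scr siRNA; filled orange, Yme1l siRNA; an asterisk marks an adjusted p under 0.05). The points of *Timm8a1* and *Hspa9* lie farthest to the right, those of *Tomm22* farthest to the left, and 24 genes have all Yme1l siRNA points to the right of all Scr siRNA points.

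The genes of the TOM complex, counted here with *Tomm34*, changed in both directions. Of these 9 tested genes, 4 were higher, 4 were lower, *Tomm34* among them, and 1 was not called. The share called was 88.9%, against 58% of all loci tested, and the median log2 fold change was 0.117. *Tomm22*, which encodes the central receptor that holds the TOM channels together, was at 185, 201 and 190.4 CPM with Scr siRNA and at 94.4, 80.5 and 123.6 CPM with Yme1l siRNA. Every Yme1l siRNA culture was below every Scr siRNA culture, and the lowest of them was the culture with the least *Yme1l1*. *Tomm22* fell by 0.95 on the log2 scale, to 0.517 of its control level (SE 0.14, adjusted p = 0.000589 in edgeR). *Tomm34*, which encodes a cytosolic co-chaperone that delivers precursors with HSP70 and HSP90, was at 40.9, 41.4 and 36.6 CPM with Scr siRNA and at 24.7, 24.9 and 26.0 CPM with Yme1l siRNA. Its Yme1l siRNA cultures lay close together and below all controls, a fall of 0.65 on the log2 scale (SE 0.08, adjusted p = 0.000152 in edgeR).

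*Tomm20*, which encodes the receptor for presequences, was at 217, 251 and 218.5 CPM with Scr siRNA and at 168, 156 and 179 CPM with Yme1l siRNA. The groups did not overlap, and *Tomm20* fell by 0.45 on the log2 scale (SE 0.09, adjusted p = 0.00224 in edgeR). The authors' own group levels for *Tomm20* lay the other way, at 102.8 FPKM with Scr siRNA and 114.2 FPKM with Yme1l siRNA, so that the deposited tables differ in its direction. *Tomm20* has 3 near-identical copies elsewhere in the genome, which together held 3.39% as many counts as *Tomm20* itself. Its relative *Tomm20l* was the gene at 0 counts. *Tomm7*, which encodes a small subunit of the complex, also fell, by 0.40 on the log2 scale (SE 0.08).

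Genes of the pore and of the carrier receptor rose. *Tomm40*, which encodes the beta-barrel pore, was at 58.8, 64.9 and 56.8 CPM with Scr siRNA and at 78.6, 73.5 and 85.9 CPM with Yme1l siRNA. The groups did not overlap, and *Tomm40* rose by 0.40 on the log2 scale (SE 0.08, adjusted p = 0.00345 in edgeR). Its paralogue *Tomm40l* was at 17.5, 15.8 and 17.8 CPM with Scr siRNA and 19.0, 20.7 and 20.9 CPM with Yme1l siRNA. The difference of 0.25 on the log2 scale passed the threshold (SE 0.09, adjusted p = 0.0379 in edgeR). It did not pass when any of Scr siRNA cultures 1 and 2 or Yme1l siRNA cultures 1, 2 and 3 was left out, with an adjusted p of up to 0.143 in edgeR. Its group levels in the authors' FPKM lay slightly the other way (11.03 and 10.57), and *Tomm40l* shares exon bases with *Nr1i3* on the opposite strand. *Tomm70a*, which encodes the receptor for carrier precursors, rose by 0.35 on the log2 scale (SE 0.08), and its Yme1l siRNA cultures all lay above the controls. *Tomm6* was higher by 0.21 (SE 0.08), in a locus that joins its name with those of *Prickle4* and *Gm21981*, and it lost its call when any single culture was left out, with an adjusted p in edgeR between 0.0517 and 0.111. *Tomm5*, the remaining small subunit, differed by 0.12 and was not called. The number of TOM genes that were higher went from 4 to 2 without Scr siRNA culture 1 or 2 or any of the Yme1l siRNA cultures, and to 3 without Scr siRNA culture 3.

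The 300 bases around the annotated start of *Tomm22*, the gene with the largest fall, are shown from 250 bases before the start to 50 bases from it, as RefSeq gives them on the plus strand of GRCm38.p6 (chr15:79670618-79670917). Capitals mark the letters CCGGAAG or their reverse complement CTTCCGG, the core of binding sites of the ETS family to which GABPA belongs. They start 47 bases before the start base, 44 bases before it, overlapping the first match on the other strand, and 5 bases after it.
Tomm22: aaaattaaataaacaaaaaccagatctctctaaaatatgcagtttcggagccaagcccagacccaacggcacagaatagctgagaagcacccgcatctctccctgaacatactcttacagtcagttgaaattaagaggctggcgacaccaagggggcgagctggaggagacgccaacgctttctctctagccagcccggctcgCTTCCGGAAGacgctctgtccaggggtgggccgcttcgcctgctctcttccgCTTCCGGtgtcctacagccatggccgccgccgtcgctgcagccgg

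Of the sorting and assembly genes of the outer membrane, 1 of 3 was higher and 0 were lower (33.3% called, against 58% of all loci tested). *Mtx1*, which encodes metaxin 1, was at 34.5, 36.4 and 35.5 CPM with Scr siRNA and at 42.3, 42.6 and 42.1 CPM with Yme1l siRNA. The groups were tight and did not overlap, and *Mtx1* rose by 0.26 on the log2 scale (SE 0.06, adjusted p = 0.00686 in edgeR). Part of its exons lies opposite those of *Thbs3* on the other strand. *Mtx2*, which encodes the partner of metaxin 1, was at 55.1, 59.1 and 53.8 CPM with Scr siRNA and at 56.1, 53.5 and 55.8 CPM with Yme1l siRNA, and the groups overlapped. The difference of −0.02 was not called (SE 0.07, adjusted p = 0.798 in edgeR). *Samm50*, the beta-barrel insertase of the complex, differed by 0.16 and was not called, with Yme1l siRNA culture 2 at the level of the controls; without that culture the difference was 0.24 with an adjusted p of 0.0283 in edgeR, and without Yme1l siRNA culture 3 it was 0.07 with an adjusted p of 0.477.

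The intermembrane space genes held the largest rise. Of 8 tested genes, 5 were higher, 2 were lower and 1 was not called (87.5% called, against 58% of all loci tested), with a median log2 fold change of 0.434. *Timm8a1*, which encodes a small chaperone that escorts hydrophobic precursors across this space and whose human counterpart is mutated in deafness-dystonia syndrome, was at 30.7, 32.4 and 29.8 CPM with Scr siRNA. It was at 70.4, 61.2 and 73.5 CPM with Yme1l siRNA, far above every control. *Timm8a1* rose 2.21-fold, or by 1.14 on the log2 scale (SE 0.08, adjusted p = 1.9e-05 in edgeR). *Timm8b*, a related small TIM gene, went the other way, from 32.8, 35.8 and 33.9 CPM to 25.8, 30.6 and 26.4 CPM. The groups did not overlap, and *Timm8b* fell by 0.31 on the log2 scale (SE 0.09, adjusted p = 0.0143 in edgeR), although the call was lost without Scr siRNA culture 2 or Yme1l siRNA culture 1, at an adjusted p of up to 0.0681 in edgeR.

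Other genes of small TIM chaperones and of their import also rose. *Timm13*, which encodes the usual partner of TIMM8A, rose by 0.40 on the log2 scale (SE 0.08), and *Timm9* and *Timm10*, which encode the subunits of the other small TIM hexamer, rose by 0.61 (SE 0.10) and 0.62 (SE 0.12). *Chchd4*, which encodes the oxidoreductase that folds these small proteins, rose by 0.47 (SE 0.08), and *Gfer*, which encodes the sulfhydryl oxidase that recharges it, differed by 0.17 (SE 0.08) and was not called. *Timm10b*, which encodes a small TIM bound to the TIM22 complex, was at 30.1, 31.0 and 30.3 CPM with Scr siRNA and at 22.7, 22.7 and 20.7 CPM with Yme1l siRNA. Its groups were tight and well apart, and it fell by 0.47 on the log2 scale (SE 0.07, adjusted p = 0.000719 in edgeR). The counts of *Timm10b* come from a locus that joins its name with those of *Dnhd1* and *Gm45799*, so they may hold reads of those genes.

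The same window of *Timm8a1*, the gene with the largest rise, lies on the minus strand of GRCm38.p6 (chrX:134541621-134541920, RefSeq). Capitals mark the E-box letters CACGTG, which start 236 bases before the start base and 24 bases after it.
Timm8a1: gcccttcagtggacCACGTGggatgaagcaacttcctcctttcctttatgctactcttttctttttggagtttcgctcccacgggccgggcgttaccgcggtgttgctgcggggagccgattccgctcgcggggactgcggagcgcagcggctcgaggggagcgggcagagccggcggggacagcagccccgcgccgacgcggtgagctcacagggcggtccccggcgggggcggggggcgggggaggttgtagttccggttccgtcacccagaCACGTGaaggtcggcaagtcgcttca

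Of the 2 genes grouped here under the TIM22 complex, 0 were called by edgeR, also at an unadjusted p under 0.05, by DESeq2 or by limma-voom. The small TIM genes were counted with the intermembrane space instead. Among them, *Timm10b*, whose protein is bound to the TIM22 complex, fell by 0.47, and *Timm9* and *Timm10* rose. Of all loci tested, edgeR called 58%. *Timm22*, the carrier insertase, differed by 0.13 and *Timm29*, its accessory subunit, by −0.18. *Timm29* was below the controls enough to be called without Scr siRNA culture 3, at −0.27 and an adjusted p of 0.0206 in edgeR.

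The TIM23 complex and its motor had 6 of 11 genes higher, 0 lower and 5 not called, with a median log2 fold change of 0.243. The share called was 54.5%, against 58% of all loci tested. By edgeR, 0 genes of this group were lower even at an unadjusted p under 0.05, and DESeq2 and limma-voom also called 0 lower. The group holds only genes chosen by name. *Romo1*, which also encodes a protein of the TIM23 complex, lies outside that choice and fell by 0.78 on the log2 scale. *Hspa9*, which encodes the mitochondrial HSP70 that pulls precursors into the matrix, was at 769.9, 832 and 884 CPM with Scr siRNA and at 1554, 1402 and 1499 CPM with Yme1l siRNA. Its groups were far apart, and *Hspa9* rose 1.79-fold, or by 0.84 on the log2 scale (SE 0.08, adjusted p = 7.6e-05 in edgeR). *Timm50*, which encodes the receptor of the complex, was at 34.0, 37.02 and 36.5 CPM with Scr siRNA and at 55.8, 58.1 and 54.4 CPM with Yme1l siRNA. It rose by 0.65 on the log2 scale with no overlap (SE 0.07, adjusted p = 8.0e-05 in edgeR).

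*Timm17a*, whose protein lines the channel and is degraded by YME1L, was at 70.8, 69.5 and 71.3 CPM with Scr siRNA and at 104.9, 101.1 and 108.2 CPM with Yme1l siRNA. The cultures of each group lay close together, and *Timm17a* rose by 0.57 on the log2 scale (SE 0.06, adjusted p = 0.000129 in edgeR). Its paralogue *Timm17b*, on the X chromosome, was at 26.7, 27.1 and 27.9 CPM with Scr siRNA and at 22.1, 27.3 and 24.1 CPM with Yme1l siRNA. The groups overlapped, and the difference of −0.15 was not called (SE 0.09, adjusted p = 0.179 in edgeR), although without Yme1l siRNA culture 2 it was −0.23 with an adjusted p of 0.0405 in edgeR and without Yme1l siRNA culture 1 −0.08 with an adjusted p of 0.514. *Timm23*, which encodes the other channel subunit, rose by 0.62 on the log2 scale (SE 0.06). *Timm23* has near-identical copies that held 51.9% as many counts as the gene itself, and with these counts added it rose by 0.57 (SE 0.06, adjusted p = 0.000103 in edgeR).

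Among the motor genes, *Dnajc19*, which encodes a J protein of the motor, rose by 0.34 (SE 0.11), and *Timm44*, which tethers HSP70 to the channel, rose by 0.24 (SE 0.07). *Dnajc19* lost its call without Scr siRNA culture 1 or 3 or Yme1l siRNA culture 2 and *Timm44* without Scr siRNA culture 1, at an adjusted p in edgeR of up to 0.0944 and 0.0643. A near-identical copy of *Dnajc19* held 16.9% as many counts as the gene itself. With these counts added, *Dnajc19* rose by 0.38 (SE 0.10, adjusted p = 0.0101 in edgeR). *Pam16*, which encodes the J-like partner that restrains the motor, differed by −0.11 and was not called, although its groups did not overlap. *Grpel1*, which encodes the nucleotide exchange factor of mitochondrial HSP70, was at 90.2, 98.1 and 88.7 CPM with Scr siRNA and at 100.1, 99.2 and 100.4 CPM with Yme1l siRNA. The difference of 0.11 was not called (SE 0.07, adjusted p = 0.181 in edgeR), although the lowest Yme1l siRNA culture lay just above the highest control. *Grpel2*, its paralogue, was at 36.4, 40.6 and 39.7 CPM with Scr siRNA and at 36.7, 34.2 and 37.04 CPM with Yme1l siRNA. These groups overlapped, and the difference of −0.11 was not called (SE 0.07, adjusted p = 0.215 in edgeR). *Timm21*, a subunit that links TIM23 to the respiratory chain, differed by −0.01.

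Of the 4 genes of the presequence and inner membrane peptidases, 0 were called by edgeR, DESeq2 or limma-voom with all 6 cultures, and 1, *Pmpcb*, was at an unadjusted p under 0.05 in edgeR. Of all loci tested, edgeR called 58%. *Pmpca*, which encodes the alpha subunit of the matrix processing peptidase, was at 163.8, 173.8 and 174.6 CPM with Scr siRNA and at 154, 145 and 166 CPM with Yme1l siRNA, a difference of −0.14 (SE 0.07, adjusted p = 0.134 in edgeR). *Pmpcb*, which encodes the catalytic beta subunit, was at 85.9, 89.2 and 90.98 CPM with Scr siRNA and at 98.1, 93.9 and 109 CPM with Yme1l siRNA, a difference of 0.18 (SE 0.08, adjusted p = 0.0750 in edgeR). The subunits thus lay on opposite sides of no difference, and *Pmpcb* alone had groups that did not overlap. Without Yme1l siRNA culture 2, *Pmpcb* was higher by 0.23 with an adjusted p of 0.0321 in edgeR, and without Yme1l siRNA culture 3 the difference was 0.11 with an adjusted p of 0.203. *Immp1l*, which encodes a subunit of the inner membrane peptidase, was at 23.8, 28.0 and 26.9 CPM with Scr siRNA and at 24.9, 27.5 and 24.99 CPM with Yme1l siRNA, a difference of −0.02 (SE 0.09, adjusted p = 0.835 in edgeR). A near-identical copy held 9.49% as many counts as *Immp1l*, and with these added the difference was −0.03 (SE 0.09). *Immp2l*, its partner, had the fewest counts of the tested genes, at 2.40, 2.11 and 2.51 CPM with Scr siRNA and at 2.19, 1.70 and 1.23 CPM with Yme1l siRNA. These values rest on 52 to 106 counts per library, and the difference of −0.45 had an SE of 0.23 and was not called (adjusted p = 0.129 in edgeR). It ran from −0.67 without Yme1l siRNA culture 1 to −0.27 without Yme1l siRNA culture 3.

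The matrix folding genes were higher in 2 of 4 cases (50% called, against 58% of all loci tested). Lower folding genes numbered 0 by edgeR, also at an unadjusted p under 0.05, by DESeq2 and by limma-voom. *Trap1*, which encodes the mitochondrial HSP90, rose by 0.43 on the log2 scale (SE 0.07). *Hspe1*, which encodes the HSP10 lid of the chaperonin, was at 89.6, 98.8 and 89.7 CPM with Scr siRNA and at 124.8, 107.9 and 155.7 CPM with Yme1l siRNA. The Yme1l siRNA cultures were spread widely but all lay above the controls, and *Hspe1* rose by 0.48 on the log2 scale (SE 0.13, adjusted p = 0.0107 in edgeR). *Hspd1*, which encodes the HSP60 barrel, was at 373, 385 and 407 CPM with Scr siRNA and at 459, 337 and 574 CPM with Yme1l siRNA. Yme1l siRNA culture 2 lay below every control and the other cultures above, and the difference of 0.23 was not called (SE 0.17, adjusted p = 0.252 in edgeR). Without that culture *Hspd1* was higher by 0.42, with an adjusted p of 0.0108 in edgeR, and without Yme1l siRNA culture 3 the difference was 0.03. In both genes the order of the Yme1l siRNA cultures was the same, with culture 2 lowest and culture 3 highest. A near-identical copy of *Hspd1* held 11.4% as many counts as the gene itself, and with these added the difference was 0.23 (SE 0.17). *Dnaja3*, which encodes a J protein of the matrix, differed by −0.02, in a locus joined with *Vasn*.

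*Hspe1* and *Hspd1* lie head to head, and 112 of their exon bases overlap on opposite strands. RefSeq gives a pair of start sites for *Hspd1*, and the window of 1 of them shares 285 bases with that of *Hspe1*, read on the opposite strand, while the other shares 4. The window of *Hspe1* on the plus strand (chr1:55087898-55088197, GRCm38.p6, RefSeq) is shown because of the 285 bases it shares with 1 window of *Hspd1*. Capitals mark 1 run in which the heat shock element letters GAANNTTC, starting 84 bases before the start base, overlap the ETS letters on both strands, starting 80 and 77 bases before it.
Hspe1: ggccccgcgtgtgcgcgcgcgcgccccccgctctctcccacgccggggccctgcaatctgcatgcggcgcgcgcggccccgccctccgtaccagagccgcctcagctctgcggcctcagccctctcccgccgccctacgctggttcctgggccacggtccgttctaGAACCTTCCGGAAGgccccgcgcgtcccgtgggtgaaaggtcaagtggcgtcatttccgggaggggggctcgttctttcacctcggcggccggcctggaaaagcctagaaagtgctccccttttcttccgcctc

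Of the proteases of the matrix and intermembrane space, 3 of 4 were higher (75% called, against 58% of all loci tested). Lower protease genes numbered 0 by edgeR, also at an unadjusted p under 0.05, by DESeq2 and by limma-voom. *Htra2*, which encodes a serine protease of the intermembrane space, was at 43.1, 47.1 and 46.1 CPM with Scr siRNA and at 65.6, 63.2 and 68.0 CPM with Yme1l siRNA. The groups were well apart, and *Htra2* rose by 0.53 on the log2 scale (SE 0.07, adjusted p = 0.000231 in edgeR). Its exons share bases with *Loxl3* and *Aup1* on the opposite strand. *Lonp1*, which encodes the main ATP-dependent protease of the matrix, rose by 0.38 on the log2 scale (SE 0.08). *Clpx*, which encodes the unfoldase of the ClpXP protease, rose by 0.21 (SE 0.07) and lost its call when Scr siRNA culture 1 or 2 or Yme1l siRNA culture 1 or 3 was left out, at an adjusted p of up to 0.115 in edgeR. *Clpp*, which encodes the proteolytic partner of CLPX, differed by 0.09 and was not called.

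Related genes of 1 machine were compared within each culture by the ratio of their counts, which does not depend on library size. The ratio of *Timm8a1* to *Timm8b* was 0.935, 0.907 and 0.880 with Scr siRNA and 2.73, 2.00 and 2.78 with Yme1l siRNA, a 2.73-fold difference. These are counts and not levels per length, and in the authors' FPKM *Timm8b* stood above *Timm8a1* in both groups, at 99.8 against 24.3 with Scr siRNA and at 80.4 against 53.4 with Yme1l siRNA. The ratio of *Timm17a* to *Timm17b* went from 2.65, 2.57 and 2.55 to 4.74, 3.70 and 4.49 (1.66-fold). The ratio of *Pmpca* to *Pmpcb* went from 1.91, 1.95 and 1.92 to 1.57, 1.54 and 1.52 (0.802-fold), with a spread within groups that was small beside this difference. Also without overlap, the ratio of *Mtx1* to *Mtx2* differed 1.21-fold, that of *Grpel1* to *Grpel2* 1.17-fold and that of *Hspd1* to *Hspe1* 0.832-fold. *Pmpca* shares 874 exon bases with *Inpp5e* on the opposite strand, and *Grpel1* shares 411 with *Tada2b*. The use of strand in the counting is not given, and the part of these overlaps in the ratios was not tested. With 3 cultures per group, an exact permutation test over cultures cannot give a two-sided p below 0.1. These 6 ratios each reached p = 0.1 in that exact test, which is the smallest it can give (0.133 after adjustment over 8 ratios). The ratios of *Tomm40* to *Tomm40l* and of *Immp1l* to *Immp2l* overlapped between groups, with an exact permutation p of 0.2.

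**Figure D2:**
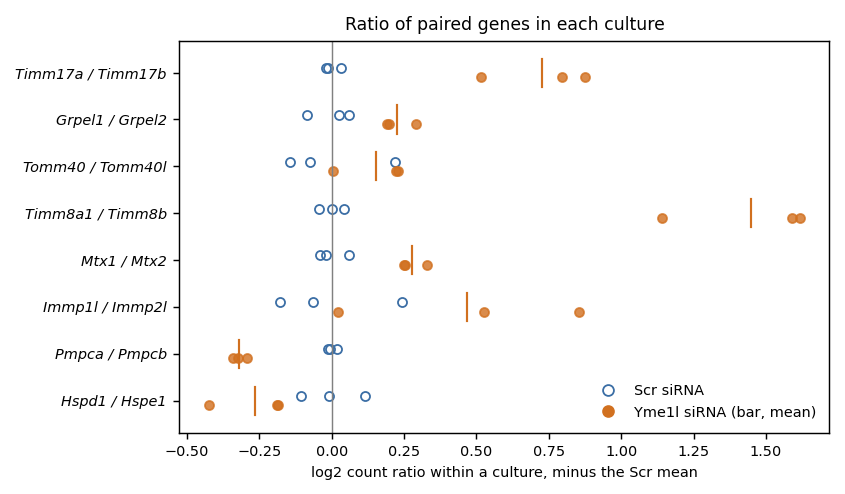
For 8 pairs of related genes, each point is the log2 ratio of their counts in 1 culture minus the mean of the 3 Scr siRNA cultures (open blue, Scr siRNA; filled orange, Yme1l siRNA; orange bar, mean of the Yme1l siRNA cultures). The Yme1l siRNA points of *Timm8a1* to *Timm8b* average 1.449 and those of *Timm17a* to *Timm17b* 0.728, whereas the groups of *Tomm40* to *Tomm40l* and *Immp1l* to *Immp2l* overlap.

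Levels of different genes can be compared only per length, for which the authors' FPKM per group were used, each a value for the 3 cultures combined. With Scr siRNA, *Hspa9* ranked first of these genes at 280.9 FPKM, *Tomm22* was second at 221 FPKM, and *Hspd1* and *Hspe1* followed at 171 and 152 FPKM. With Yme1l siRNA, *Hspa9* stayed first at 502 FPKM, *Hspe1* was at 212 FPKM, and *Tomm22* went to rank 8 at 115 FPKM. *Timm17a* went from 75.7 to 133 FPKM, against 32.5 and 30.5 FPKM for *Timm17b*. *Immp2l* was lowest among the tested genes in both groups, at 3.91 and 2.98 FPKM, and *Chchd4* was next in the Scr siRNA group at 6.73 FPKM. Among the 45 tested genes, *Tomm20* and *Tomm40l* were the only 2 whose FPKM and fitted fold change lay on opposite sides.

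**Figure D3:**
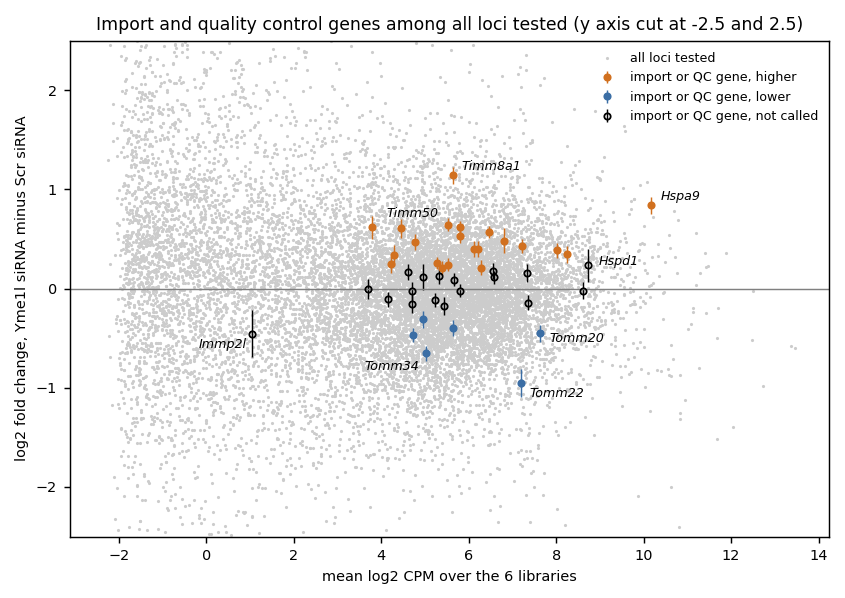
The mean log2 CPM over the 6 libraries (x axis) is plotted against the log2 fold change of Yme1l siRNA over Scr siRNA (y axis) for all 14499 loci tested (grey) and the 45 import and quality control genes (orange, higher; blue, lower; open black, not called; bars, standard error), with loci beyond the y limits not drawn. *Hspa9* is the gene of this group with the highest level, *Timm8a1* lies highest at 1.14, *Tomm22* lowest at −0.95, and *Immp2l* has the lowest level and a wide error bar.

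RefSeq windows of 300 bases were given for 41 of the 47 genes, and those of *Tomm40l*, *Hspa9*, *Grpel2*, *Timm21*, *Tomm7* and *Htra2* were not analysed here. Each was searched on both strands for 7 sets of letters. The ETS letters CCGGAAG were in 18 of the 41 genes (43.9%), against 19.5% of the 10348 tested genes with a window and 10% of all 26742 genes with one. By call, they were in 5 of 18 higher genes, 4 of 5 lower genes and 8 of 16 genes that were not called. For all sets of letters, the shares by call over all tested genes were not analysed here. A link between letters and direction was therefore not tested. The 41 genes include *Tomm20l* and *Timm8a2*, which were not tested and so have no call. *Timm8a2* holds the ETS letters, and *Tomm20l* holds the letters CACGTG and CCAAT. The E-box letters CACGTG were in 7 genes (17.1%, against 11.6% of tested genes), 4 of them higher, and the NRF1 letters TGCGCANG were also in 7 (17.1%, against 12.2%), 3 of them higher. The heat shock element letters GAANNTTC were in 3 genes (7.32%, against 6.92%), the interferon response letters GAAANNGAA in 4 (9.76%, against 8.69%) and CCAAT in 15 (36.6%, against 43.2%). The amino acid response letters TTGCATCA, a composite site of C/EBP and ATF factors, were in 0 of the 41 windows, against 0.734% of tested genes. A match describes the letters of the window and does not show that a factor binds there, and some matches of ETS and heat shock letters overlap. The heat shock and ETS matches of *Hspe1* and *Hspd1* are the same bases, within the 285 that their windows share. They were counted for both genes.

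Of 16 tested genes of other import and matrix quality control steps, 3 were higher and 3 lower, with a median log2 fold change of −0.037. The share called was 37.5%, against 58% of all loci tested. The 3 smallest adjusted p-values there were those of *Romo1*, which encodes a small protein of the TIM23 complex and fell by 0.78 (SE 0.09), of *Oxa1l*, the inner membrane insertase, which rose by 0.40 (SE 0.07), and of *Aifm1*, the partner of CHCHD4, which rose by 0.35 (SE 0.08). The other called genes of that list, named after their values were seen, were *Xpnpep3*, which rose by 0.48, and *Mtx3* and *Afg1l*, which fell by 0.33 and 0.38. All 6 tested genes of the inner membrane proteases and scaffolds were called, 5 higher and 1 lower, against 58% of all loci tested. *Afg3l2*, a subunit of the m-AAA protease, rose by 0.73 (SE 0.07), the prohibitin gene *Phb* rose by 0.79 (SE 0.07), and *Stoml2*, a scaffold that holds YME1L, rose by 0.49 (SE 0.09). The gene that was lower, named after its values were seen, was *Oma1*, a stress-activated peptidase, which fell by 0.45. Of 77 tested mitochondrial ribosomal protein genes, 35 were higher and 13 lower (45.5% and 16.9%, beside 46.7% and 13.3% of the import and quality control genes), with a median log2 fold change of 0.181. The smallest adjusted p-values among these were those of *Mrpl49*, *Mrpl28* and *Mrpl30*, which rose by 0.67, 0.68 and 0.78 (SE 0.06 to 0.09). All 7 genes of transcription factors linked to mitochondrial stress or biogenesis were called, 4 higher and 3 lower, against 58% of all loci tested. *Atf4* rose by 0.41 (SE 0.09) and *Nrf1* by 0.36 (SE 0.075), whereas *Cebpb* fell by 0.57 (SE 0.12). The remaining genes of that list were named after their values were seen. Of these, *Ddit3* rose by 0.74 (SE 0.17) and *Hsf1* by 0.25 (SE 0.07), and *Gabpa* fell by 0.53 (SE 0.13) and *Atf5* by 0.20 (SE 0.07). The part of these factors in the changes of the import and quality control genes was not tested.

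Leaving out 1 culture at a time left between 16 and 21 genes higher and between 5 and 7 lower. Of the 27 called genes, 21 kept their call in all 6 of these fits, and the 6 that lost it in at least 1 fit were *Clpx*, *Dnajc19*, *Timm44*, *Tomm40l* and *Tomm6* among the higher and *Timm8b* among the lower. For several genes the range was set by Yme1l siRNA cultures 2 and 3. For *Tomm22* the fall was between 1.14 without Yme1l siRNA culture 3 and 0.81 without Yme1l siRNA culture 2, and *Hspe1* rose by 0.33 to 0.60 under the same omissions. *Timm8a1* rose by 1.08 to 1.22, *Hspa9* by 0.79 to 0.89 and *Timm17a* by 0.54 to 0.60.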

How the data were processed

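RNA-Seq libraries of 6 cultures, 3 with Scr siRNA and 3 with Yme1l siRNA for 72 h, were grouped by their labels. The authors mapped paired reads from stranded poly(A) libraries to mm10 (Ensembl build 91) with HISAT2 2.0.4, assembled transcripts with StringTie 1.3.3 and compared groups with Cuffdiff 2.2.1. The counting program and its use of strand and of reads with several matches are not given in the sources used here, and they could move counts of overlapping or copied genes. The deposited counts are raw reads per locus, and 398 of the tested loci join several gene names. The authors' FPKM values combine the 3 cultures of a group and were used to compare levels between genes and to set the direction in that table beside the fitted one. Their columns of fold changes, test statistics, p-values and q-values were not used.

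The genes, the other lists and the tests were chosen with earlier results of these data known. Counts were scaled by TMM and tested with edgeR 4.0.16 (quasi-likelihood, no covariates, filterByExpr with a minimum of 10 counts, 14499 loci, Benjamini-Hochberg adjustment) in R 4.3.3, and the step was tested on simulated data. Alternatives were DESeq2 1.42.0, limma-voom (limma 3.58.1), other scale factors, filters and thresholds, the replicate number as a block, each culture left out, and, chosen after seeing the data, counts summed with near-identical copies (BLAST 2.17.0, 95% identity over 200 bases of GENCODE M21 transcripts). Depth was 37260605 to 45205207 counts per library, and no library repeated another of its group (chi-square per degree of freedom of at least 10.4 for each pair). Limits from a count of 0 cover counting error only. Values for each culture were given for *Yme1l1*, the 3 smallest adjusted p-values in each direction, the called gene with the largest change in each role, and the pairs of related genes, *Tomm20* and *Tomm20l* included. In the other lists the 3 genes with the smallest adjusted p were named, and exceptions are marked. Promoter windows came from RefSeq (GRCm38.p6). Python 3.11.15 with pandas 2.3.3 and matplotlib 3.10.9 made the tables and figures.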

Additional observations from a re-analysis of the deposited data

How the results depend on the processing

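The counts of 21 genes higher and 6 lower stayed within 1.5 times of these values under all alternatives but 1. With at least 1.5-fold required as well, 6 genes were higher and 2 lower, and 2272 and 2336 of all loci, since that setting asks for a larger difference. DESeq2, limma-voom, RLE scale factors and counts summed with near-identical copies each gave 21 and 6, upper-quartile factors and a mean of at least 50 counts gave 22 and 6, all loci with at least 1 count gave 18 and 6, and an adjusted p under 0.01 gave 15 and 5. The median log2 fold change was 0.176 to 0.210 over the other tools, scale factors and filters, and leaving out 1 culture gave 0.112 (without Yme1l siRNA culture 3) to 0.231 (without Yme1l siRNA culture 2). *Yme1l1* was between −2.64 and −2.15 when 1 culture was left out.

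The genes that changed sign were not called and lay near 0. *Timm21* was 0.0018 with DESeq2 and with RLE factors, 0.0128 with upper-quartile factors and 0.0265 with a mean of at least 50 counts, where *Dnaja3* was 0.0122, *Mtx2* 0.0113 and *Immp1l* 0.0096. When 1 culture was left out, *Timm21* ranged from −0.0741 to 0.0759, *Dnaja3* from −0.0986 to 0.0416, *Mtx2* from −0.0545 to 0.0128, *Immp1l* from −0.0957 to 0.0188 and *Tomm5* from −7e-04 to 0.2139. The cause was not tested. By role, requiring 1.5-fold left 0 TOM genes higher and 2 lower, 3 intermembrane space genes higher and 0 lower, 3 TIM23 genes higher and 0 in the SAM, folding and protease groups. Testing all loci with at least 1 count or an adjusted p under 0.01 left 2 TOM genes higher, and the latter left 1 folding gene higher and 1 intermembrane space gene lower, while upper-quartile factors and a mean of at least 50 counts added 1 peptidase gene, *Pmpcb*. Over 45 genes and their alternatives, 621 values kept direction and side of the threshold, 31 lost a call, 7 gained one and 16 changed sign.

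The labels number the cultures 1 to 3 in both groups without saying what a number shares. Deviations of same-numbered cultures from their group means correlated at 0.111, 0.189 and 0.276 on log2(CPM + 1), and at 0.041, 0.116 and 0.192 with a larger prior count. Among cultures of different numbers, Scr siRNA culture 1 and Yme1l siRNA culture 2 correlated at 0.153 on log2(CPM + 1), and the others at −0.26 to −0.048. These values do not settle whether a number marks a pair. Because the labels do not say so, the numbers were not taken as pairs in the main fit. With the replicate block, 21 genes were higher and 6 lower, the median log2 fold change was 0.176, *Yme1l1* was at −2.40, 4227 and 4460 of all loci were called, and no call of an import or quality control gene changed. *Immp2l* rests on at most 106 counts per library and had the highest SE of the tested genes (0.23). The parts of counting error and of the spread between cultures in it were not tested.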

Other observations

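The Yme1l siRNA cultures differed in how much *Yme1l1* remained, with culture 2 lowest, culture 1 next and culture 3 highest. The import and quality control genes stood in this same order in 21 of 45 cases (46.7%), among them *Tomm22*, *Tomm20*, *Tomm40*, *Tomm70a*, *Timm8a1*, *Timm17a*, *Timm23*, *Hspd1*, *Hspe1* and *Samm50*, against 27.0% of all loci tested. The opposite order was found for 4 genes (8.89%), *Dnaja3*, *Mtx1*, *Timm29* and *Timm50*, against 26.8% of all loci tested. The order rests on 3 cultures, which share their library size and composition across all genes, and it was given no test. It runs through genes that fell, such as *Tomm22*, and genes that rose, such as *Timm8a1*, so that in the culture with the least *Yme1l1* the fall of *Tomm22* was larger than in the other Yme1l siRNA cultures and the rise of *Timm8a1* was smaller. The order was examined after the values were seen.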
